A study of Mus musculus with 29 samples.

Results

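The genes described here are 36 lysosome and autophagy genes of adult mouse cortical cultures, followed through 5 comparisons of cultures made after a conditioning lesion with naive cultures. They were taken by their symbols (cathepsins and other acid hydrolases, subunits of the vacuolar proton pump, lysosomal membrane proteins and autophagy genes) from the authors' deposited table, which holds 5826 genes. That table keeps a gene when its adjusted p is under 0.1 at 1 or more of the 5 days, so each of the 36 had passed at some day before it was chosen, and the number that passed is a description and no support for a response of the pathway. Of 94 protein-coding genes of the mouse annotation whose symbols match the same pattern, 58 were outside the table, among them Ctsb, Ctsd, Hexa, Lamp1, Lamp2 and Tfeb, and are not analysed here.

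Lysosomes digest what is delivered to them by endocytosis and autophagy with hydrolases that need an acid lumen. The acid is made by the vacuolar ATPase, a rotary pump whose cytosolic V1 sector splits ATP and whose membrane-bound V0 sector carries protons; in neurons the same pump also acidifies synaptic vesicles, which load transmitter with the resulting gradient. Autophagy encloses cytoplasm in a double membrane, built with the products of the Atg genes and with LC3 and GABARAP proteins, and passes it to the lysosome.

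RNA was sequenced from primary cortical cultures of adult wild-type C57/BL6 mice, labelled as adult neurons. Animals of the lesion groups had received an injury in the living animal a day before plating, and those of the naive groups none. Lesion and naive cultures were harvested at days 1, 2, 3, 5 and 7, with 3 libraries in each of the 10 groups except the naive group of day 7, which had 2. The site of the injury, the exact age of the adult mice and whether libraries came from separate cultures or animals are not stated by the labels, so p-values measure only the spread between these libraries, which may be technical.

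The table gives comparisons and no value per library, so neither the levels in single libraries nor their overlap between groups can be shown, and the depth is unknown. Each value below is the authors' log2 fold change of lesion over naive at 1 day, positive where lesion cultures were higher. "Rose" and "fell" mean an adjusted p under 0.1 over the 19085 genes tested at that day. Standard errors are those implied by the fold change and its p-value. A difference between days that includes a day at which the gene was called reuses that value. It adds no support to the call. A rank in the table, read here as the order of mean expression with low numbers for abundant genes, was 13 for Sqstm1 and up to 17909 for Ctsr. In bulk cultures, fewer cells of a type and less RNA per cell cannot be told apart.

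Most calls among the 36 genes were made at day 5. At day 1 no gene of the 36 rose and 1 fell in the authors' deposited table, where 0.618% of all genes tested were called, 0.0891% risen and 0.529% fallen. At day 2, 5 rose and 1 fell, with 5.97% of all genes called, 1.89% risen and 4.08% fallen. At day 3 none was called, against 1.48% of all genes, 0.534% risen and 0.943% fallen. Day 5 gave 9 risen and 22 fallen, when 24.0% of all genes tested had been called, 12.8% risen and 11.2% fallen. Day 7 gave 3 risen and 1 fallen, with 4.09% of all genes called, 3.11% risen and 0.985% fallen. All genes called lie in the table, so its 5826 genes are the like background for the 36. Of the table, 118 genes were called at day 1, 1140 at day 2, 282 at day 3, 4575 at day 5 and 781 at day 7. Of the 36 genes, 30 passed at 1 day and 6 at 2 days.

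**Figure D1:**
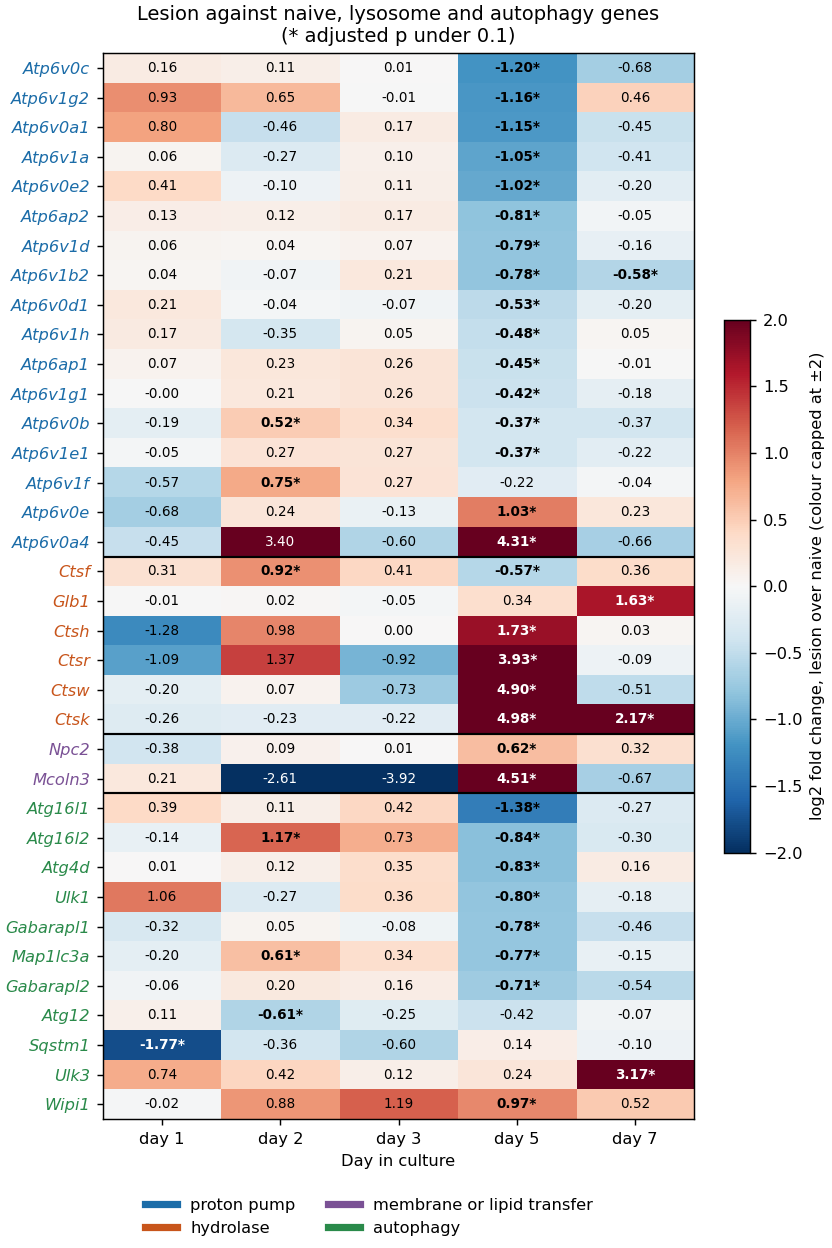
Log2 fold change of lesion over naive for the 36 genes (rows, grouped by role and ordered by their day 5 value) at 5 days in culture (columns); asterisks mark an adjusted p under 0.1 and colours are capped at 2 in each direction. The day 5 column is mostly blue for the proton pump and autophagy genes (14 of 17 and 7 of 11 fell) and mostly red for the hydrolases (4 of 6 rose).

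At day 5, among the genes of the table, 14 of 17 proton pump genes and 7 of 11 autophagy genes were lower, and 4 of 6 hydrolase genes higher, in lesion cultures. Of 17 proton pump genes 14 fell and 2 rose, of 11 autophagy genes 7 fell and 1 rose, and of 6 hydrolase genes 4 rose and 1 fell, in the authors' deposited table. Both genes of lysosomal membrane and lipid transfer, Mcoln3 and Npc2, rose. The annotation holds 25 pump genes, 28 hydrolases and 31 autophagy genes of the same pattern. Of these annotated pump genes 56% fell and 8% rose, and of the autophagy genes 22.6% fell and 3.23% rose. Of the hydrolases 14.3% rose and 3.57% fell. Over all genes tested 12.8% rose and 11.2% fell, and the share of risen hydrolases is near that of all genes. The fallen pump and autophagy genes all had a rank up to 9542. Up to that rank 1906 genes fell and 947 rose, so 11.2% is not the share fallen among genes of like rank. The median log2 fold change at day 5 was -0.53 for the pump, -0.77 for autophagy and 2.83 for the hydrolases, against 0.17 over all 5826 genes. With a rank up to 9542 the median was -0.65 over 16 pump genes, -0.77 over 11 autophagy genes and 1.03 over 4 hydrolases, against -0.65 over 3607 genes, so the pump's median is near that of the table in this range. At an adjusted p under 0.01, 7 pump genes and 3 autophagy genes fell and 2 hydrolases rose, while 454 of all genes tested fell and 644 rose. A further limit was an absolute log2 fold change of 1 or more as well as the 0.1 threshold. With it, 5 pump genes and 1 autophagy gene fell, and 2 pump genes and 4 hydrolases rose. Over all 36 genes that fold limit left 7 risen and 6 fallen, so the excess of fallen genes at day 5 does not hold under it. The limit also took more fallen than risen genes over all genes tested, leaving 2196 risen of 2438 and 1309 fallen of 2137. Whether the roles differ was not tested, since the genes are not replicates of a condition.

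Over the whole table, direction at day 5 went with the rank. Of all genes called at day 5, 2137 fell and 2438 rose, or 46.7% fallen; with a rank up to 9542 the split was 1906 fallen to 947 risen (66.8%), and with a rank up to 700 it was 215 to 88 (71.0%). Of the proton pump genes, 14 had a rank up to 700, and 12 of these fell and 1 rose. The 4 genes of the 36 with a rank above 9542, namely Atp6v0a4, Ctsw, Ctsr and Mcoln3, all rose, in a range where 1491 genes rose and 231 fell. The part of abundance in the directions of the pump and hydrolase genes was not tested.

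**Figure D2:**
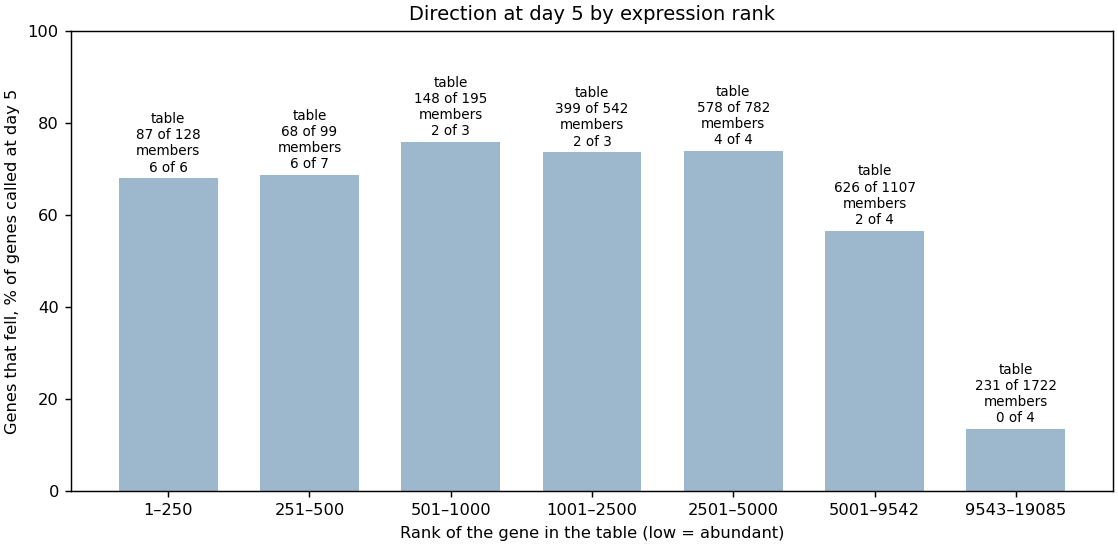
Share of genes that fell among all genes called at day 5 (bars, percent), in bins of the rank given by the table, with the counts for the table and for the 36 genes printed above each bar. The share lies between 56.5% and 75.9% in the 6 bins up to rank 9542 and is 13.4% above it, where all 4 of the 36 genes rose.

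Among V1 subunits, all 8 genes of the table had a negative log2 fold change at day 5, and 7 fell. Among all genes tested 11.2% fell at day 5. The V1 genes Atp6v1b1, Atp6v1c1, Atp6v1c2, Atp6v1e2 and Atp6v1g3 are outside the table, so the sector is covered only in part. Atp6v1a, which encodes the ATP-splitting A subunit, had log2 fold changes of 0.06, -0.27, 0.10, -1.05 and -0.41 at days 1, 2, 3, 5 and 7 in the authors' deposited table, with implied standard errors of 0.16 to 0.21. Atp6v1b2, its B subunit partner in the catalytic head and the form found in brain, had 0.04, -0.07, 0.21, -0.78 and -0.58 over the same days of the authors' deposited table, with standard errors of 0.17 to 0.21. Atp6v1b2 fell at day 5 (adjusted p = 0.00383) and, just inside the threshold, at day 7 (adjusted p = 0.0995), and was the only pump gene of the 17 called at day 7.

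The other V1 genes of the table encode the rotor, the peripheral stalks and a regulatory subunit, and all but Atp6v1f fell at day 5. Atp6v1d, of the central rotor, fell at day 5 by 0.79 (standard error 0.19), per the authors' deposited table, and lay between -0.16 and 0.07 at the other 4 days. Atp6v1h, a regulatory subunit, fell by 0.48 (standard error 0.15), and Atp6v1g1 and Atp6v1e1, of the peripheral stalks, by 0.42 and 0.37 (0.15 each), all at day 5 of the authors' deposited table. Atp6v1g2, the neuronal form of the G subunit, had 0.93, 0.65, -0.01, -1.16 and 0.46 over the 5 days, with wider standard errors of 0.33 to 0.67, in the authors' deposited table. It fell at day 5 (adjusted p = 0.0158), and its values at days 1 and 2 did not pass (adjusted p = 0.639 and 0.418).

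Atp6v1f, another subunit of the rotor, had another course. Its log2 fold changes were -0.57, 0.75, 0.27, -0.22 and -0.04 at days 1, 2, 3, 5 and 7 in the authors' deposited table, with standard errors of 0.14 to 0.18. Only the day 2 value passed (adjusted p = 0.0114), and the difference of day 2 minus day 1 was 1.33 (standard error 0.24, adjusted p = 0.0025). At that comparison of days 3.23% of all genes tested were called, or 10.6% of the table, and 3 of the 36 (8.33%): Atp6v1f and Sqstm1, both higher at day 2, and Atp6v0a1, lower at day 2.

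Of 7 V0 genes of the table, 5 fell and 2 rose at day 5, where 11.2% of all genes tested fell and 12.8% rose. Atp6v0a2 and Atp6v0d2 are outside the table. Atp6v0c, the proteolipid of the proton-carrying ring, fell most among the pump genes of the table, with 0.16, 0.11, 0.01, -1.20 and -0.68 over the 5 days in the authors' deposited table (standard errors 0.22 to 0.29). The annotation holds 2 processed pseudogenes of Atp6v0c, so its reads could be split. Atp6v0b, which encodes a second proteolipid of the ring, had -0.19, 0.52, 0.34, -0.37 and -0.37 in the authors' deposited table (standard errors 0.15 to 0.18), and was called at both day 2 (risen, adjusted p = 0.0513) and day 5 (fallen, adjusted p = 0.0846). The ring genes thus shared the sign at days 5 and 7 and at days 2 and 3, and of the values at days 2, 3 and 7 only that of Atp6v0b at day 2 passed the threshold.

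Atp6v0a1, the a subunit isoform of neurons, through which protons enter and leave the ring, had the smallest heterogeneity p over the 5 days among the 36 genes (adjusted p = 0.00072). It had 0.80, -0.46, 0.17, -1.15 and -0.45 in the authors' deposited table (standard errors 0.18 to 0.26), of which the day 5 value passed (adjusted p = 0.000539) and the day 1 value did not (adjusted p = 0.202). The difference of day 5 minus day 1 was -1.96 (standard error 0.34, adjusted p = 0.000312). At that comparison 16.1% of all genes tested were called, or 52.8% of the table, and 18 of the 36 genes (50%), 12 lower and 6 higher at day 5. Atp6v0d1, which joins the ring to the rotor, fell at day 5 by 0.53 (standard error 0.17), per the authors' deposited table.

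Isoforms of the same V0 subunit went opposite ways at day 5. Atp6v0e2, the e subunit isoform best known from brain, had 0.41, -0.10, 0.11, -1.02 and -0.20 (standard errors 0.22 to 0.26), and the widely expressed isoform Atp6v0e had -0.68, 0.24, -0.13, 1.03 and 0.23 (standard errors 0.28 to 0.31), in the authors' deposited table. Both passed at day 5, Atp6v0e2 with an adjusted p of 0.00211 and Atp6v0e with 0.0167. Day 5 minus day 1 was -1.43 (standard error 0.35, adjusted p = 0.00606) for Atp6v0e2 and 1.71 (standard error 0.43, adjusted p = 0.00767) for Atp6v0e. These differences reuse the day 5 values and add no support to the day 5 calls. Of the a subunit, Atp6v0a1 fell while Atp6v0a4, the isoform of kidney, rose by 4.31 at day 5 in the authors' deposited table. Atp6v0a4 has a rank of 15067, that of a weakly expressed gene, and its standard error at day 5 was 1.53.

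The accessory subunits Atp6ap1 and Atp6ap2, which assist assembly of the pump, fell at day 5 by 0.45 (standard error 0.15) and 0.81 (standard error 0.20) in the authors' deposited table. At the other 4 days their log2 fold changes were between -0.05 and 0.26, and none passed.

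**Figure D3:**
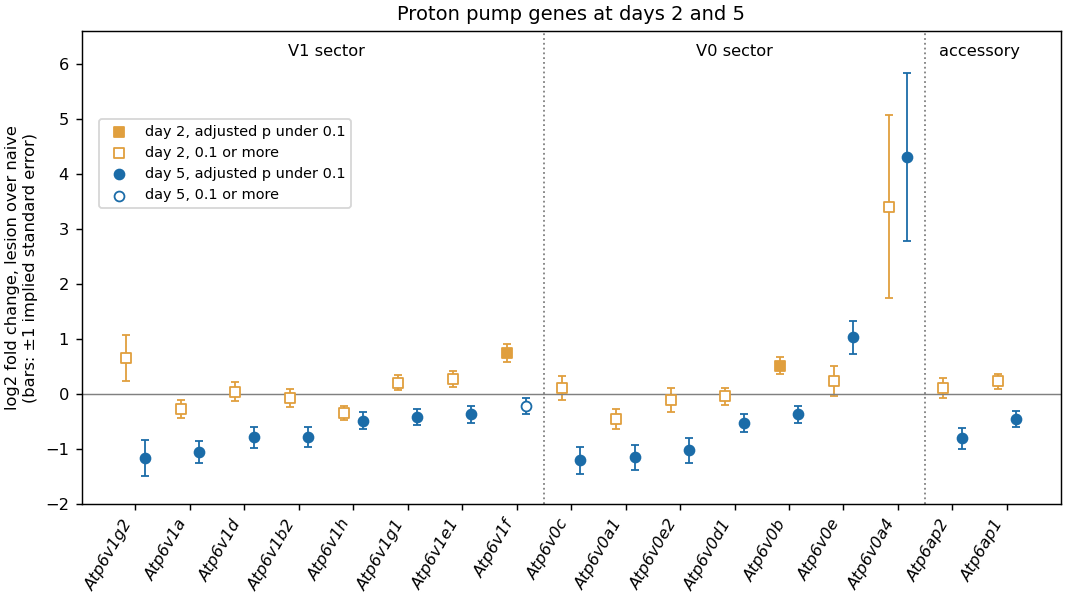
Log2 fold change of lesion over naive for the 17 proton pump genes at day 2 (squares) and day 5 (circles), with bars of 1 implied standard error in each direction; filled symbols have an adjusted p under 0.1. At day 5 all values lie below 0 except those of Atp6v0e (1.03) and Atp6v0a4 (4.31), and at day 2 only Atp6v1f (0.75) and Atp6v0b (0.52) were called.

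Neuronal markers fell with the pump genes at day 5. Of 22 neuronal markers 15 were in the table, and 12 fell and none rose at day 5 of the authors' deposited table, including the GABA synthesis genes Gad1 (-1.64) and Gad2 (-1.97), the synaptic vesicle gene Syt1 (-1.49) and the dendritic microtubule gene Map2 (-1.70). Of 18 fibroblast and mural markers 16 rose, and of 15 astrocyte markers 6 rose and 1 fell, in the same table. Among all genes tested 12.8% rose and 11.2% fell at day 5. The part of these markers in the pump result was not tested. Their levels per library, and thus their summed level in each group, are not given by the table; both neuronal genes (Gad1, rank 244; Tubb3, rank 321) and genes of non-neuronal cells (Vim, rank 213; Fn1, rank 351) had low ranks, in cultures labelled as neurons. Tubb3, Vim and Fn1 were chosen after their values were seen.

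Many lysosomal genes carry a promoter element, an E-box with the core CACGTG, which is bound by TFEB, the regulator of lysosomal genes. Promoters, from 250 bases before to 50 after the start, were given by RefSeq (GRCm38.p6) for 28 of the 36 genes, matched by symbol. CACGTG, which reads the same on both strands, was found in 6 of the 28 (21.4%), against 2187 of 27025 genes (8.09%). The longer TCACGTGA, which contains it, was found in 3 (10.7%), against 304 (1.12%). With a G added before that motif and a C after it, it was found in none, against 100 (0.37%). The 27025 genes are all those with a promoter entry, in the table or not. No share was taken over the table alone, so the members were not compared with genes chosen alike. Of the 6 genes 4 encode pump subunits (Atp6v0b, Atp6v0d1, Atp6v0e, Atp6v1a) and 2 hydrolases (Ctsf, Glb1), and none of the 8 autophagy genes with an entry had the core. Of these 6, at day 5 Atp6v0b, Atp6v0d1, Atp6v1a and Ctsf fell, Atp6v0e rose and Glb1 was not called, in the authors' deposited table; of the 22 genes without the core 13 fell and 6 rose.

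The stretches around the core in 5 of these promoters are shown to give the element in its context, 5′ to 3′ on the strand of the gene, with CACGTG, or TCACGTGA where the match is longer, in capitals. They lie at chr4:117887322-117887385 (minus strand, Atp6v0b, 2 matches that start 36 and 18 bases before the gene's start), chr8:105566042-105566087 (minus, Atp6v0d1, starting 3 bases before), chr16:44139365-44139410 (minus, Atp6v1a, 131 bases before), chr19:4855066-4855111 (plus, Ctsf, 79 bases before) and chr9:114401010-114401055 (plus, Glb1, 48 bases before). By GENCODE vM21, the stretches of Atp6v1a, Ctsf and Glb1 lie outside exons, and those of Atp6v0b and Atp6v0d1 run a few bases into the first exon. That of Atp6v0e, which rose at day 5, is not shown. It holds TCACGTGA, with the core 3 bases after the gene's start, and lies within an exon.
Atp6v0b: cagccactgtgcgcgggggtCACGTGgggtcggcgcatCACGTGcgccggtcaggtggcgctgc
Atp6v0d1: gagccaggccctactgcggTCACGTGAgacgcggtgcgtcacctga
Atp6v1a: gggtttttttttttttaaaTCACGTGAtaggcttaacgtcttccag
Ctsf: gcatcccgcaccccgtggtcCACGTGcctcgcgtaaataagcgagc
Glb1: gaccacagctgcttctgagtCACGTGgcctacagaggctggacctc

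Among hydrolases, 4 cathepsin genes rose at day 5, while Ctsf fell and Glb1 was called at day 7. Ctsk, a collagen-degrading cysteine protease best known from osteoclasts, had -0.26, -0.23, -0.22, 4.98 and 2.17 at days 1, 2, 3, 5 and 7 in the authors' deposited table, with standard errors of 0.58 to 0.96. It rose at day 5 (adjusted p = 0.000511) and at day 7 (adjusted p = 0.0412), and was the only one of the 36 genes to rise at 2 days. The difference of day 5 minus day 2 was 5.22 (standard error 1.24, adjusted p = 0.00495). Of the 18 fibroblast and mural markers, 16 rose at day 5 and 7 at day 7 in the same table, among them Col1a1 (5.53 and 3.34), the gene of a fibrillar collagen. Among all genes tested 12.8% rose at day 5 and 3.11% at day 7. The part of the fibroblast and mural markers in the Ctsk result was not tested.

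Ctsw, a cathepsin of cytotoxic lymphocytes, had -0.20, 0.07, -0.73, 4.90 and -0.51 in the authors' deposited table (standard errors 0.82 to 1.10), and Ctsr, known from mouse placenta, rose by 3.93 at day 5 with a standard error of 1.42. Their ranks of 12099 and 17909 are those of weakly expressed genes. Ctsh, an aminopeptidase cathepsin with a rank of 2230, had -1.28, 0.98, 0.00, 1.73 and 0.03 in the authors' deposited table (standard errors 0.49 to 0.98), and rose at day 5 (adjusted p = 0.0355). With a rank up to 9542, 2 hydrolases thus rose at day 5, Ctsk and Ctsh.

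Ctsf and Glb1 had other courses. Ctsf, a widely expressed lysosomal cysteine protease, had 0.31, 0.92, 0.41, -0.57 and 0.36 in the authors' deposited table (standard errors 0.20 to 0.37). It rose at day 2 (adjusted p = 0.0363) and fell at day 5 (adjusted p = 0.0483). The difference between these days, -1.48 (standard error 0.32, adjusted p = 0.00219), restates these opposite calls and adds no support to them. Glb1, the lysosomal beta-galactosidase, lay between -0.05 and 0.34 up to day 5 and rose at day 7 by 1.63 (standard error 0.52, adjusted p = 0.0916), per the authors' deposited table. The naive group of day 7 held 2 libraries, and the test of a difference between days did not pass for Glb1 (adjusted p = 0.366).

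Npc2, a soluble protein that hands cholesterol out of the lysosome, rose at day 5 by 0.62 (standard error 0.23, adjusted p = 0.0555), per the authors' deposited table, with -0.38, 0.09, 0.01 and 0.32 at days 1, 2, 3 and 7. Mcoln3, a cation channel of endosomes and lysosomes with a rank of 16795, had 0.21, -2.61, -3.92, 4.51 and -0.67 in the authors' deposited table, with standard errors of 1.39 to 1.72. Its day 5 value passed (adjusted p = 0.0335), and its values at days 2 and 3 did not (adjusted p = 0.329 and 0.162).

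Of the 11 autophagy genes 7 fell at day 5, and 1, Sqstm1, fell at day 1. Sqstm1 encodes the receptor p62, which ties ubiquitinated cargo to LC3 and is itself degraded by autophagy. It had -1.77, -0.36, -0.60, 0.14 and -0.10 at days 1, 2, 3, 5 and 7 in the authors' deposited table (standard errors 0.28 to 0.31), and was the only one of the 36 called at day 1 (adjusted p = 0.0026). The difference of day 5 minus day 1 was 1.91 (standard error 0.42, adjusted p = 0.00308). The cystatins Cst3 (-2.05) and Cstb (-1.53), inhibitors of cathepsins named here after their values were seen, fell at day 1 as well, as did 2 of 26 microglia and macrophage markers, Csf1r (-2.26) and Cd14 (-3.32), in the authors' deposited table. Among all genes tested 0.529% fell at day 1. The part of these markers in the Sqstm1 result was not tested.

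**Figure D4:**
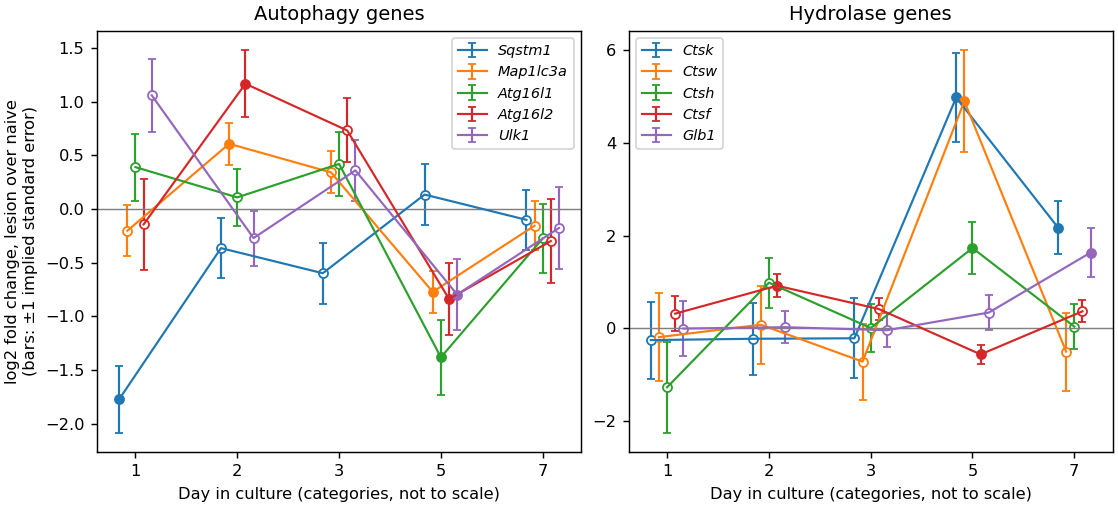
Log2 fold change of lesion over naive by day in culture for 5 autophagy genes (left) and 5 hydrolase genes (right), with bars of 1 implied standard error in each direction and filled points where the adjusted p was under 0.1; lines only join the days of a gene. Sqstm1 was lowest at day 1 (-1.77), the other 4 autophagy genes were lowest at day 5, and Ctsk was called at days 5 (4.98) and 7 (2.17).

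The start of autophagosome formation was represented by the kinase genes Ulk1 and Ulk3 and by Wipi1. Ulk1, the initiating kinase, had 1.06, -0.27, 0.36, -0.80 and -0.18 in the authors' deposited table (standard errors 0.26 to 0.38) and fell at day 5, close to the threshold (adjusted p = 0.0933); its day 1 value did not pass (adjusted p = 0.205). Day 5 minus day 1 was -1.86 for Ulk1 (standard error 0.48, adjusted p = 0.0087). Ulk3, a related kinase, rose at day 7 by 3.17 (standard error 0.91, adjusted p = 0.061), per the authors' deposited table, and lay between 0.12 and 0.74 before. Wipi1, which reads a phosphoinositide on the forming membrane, had -0.02, 0.88, 1.19, 0.97 and 0.52 in the authors' deposited table, of which the day 5 value passed (adjusted p = 0.0524). Wipi1 had the only risen value at day 5 among the 11 autophagy genes, and the test of a difference between days did not pass for it (adjusted p = 1).

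Of the conjugation step, which attaches LC3 and GABARAP proteins to the membrane, 4 genes were in the table, and 3 of them fell at day 5; others of the step, such as Atg3, Atg5 and Atg7, are outside the table. Atg16l1, the scaffold of the conjugating complex, had 0.39, 0.11, 0.42, -1.38 and -0.27 in the authors' deposited table (standard errors 0.27 to 0.35), the lowest day 5 value of the 36 genes. Its paralogue Atg16l2 had -0.14, 1.17, 0.73, -0.84 and -0.30 in the authors' deposited table (standard errors 0.30 to 0.42) and was called at day 2 (risen, adjusted p = 0.0326) and at day 5 (fallen, adjusted p = 0.0827). The difference of day 5 minus day 2 was -2.01 (standard error 0.46, adjusted p = 0.00385) for Atg16l2 and -1.49 (standard error 0.44, adjusted p = 0.0232) for Atg16l1. For Atg16l2 this difference restates its opposite calls. Atg4d, a protease that processes GABARAP and LC3 proteins, fell at day 5 by 0.83 (standard error 0.32), per the authors' deposited table. Atg12, the ubiquitin-like partner of Atg5, fell by 0.61 (standard error 0.19, adjusted p = 0.0738) at day 2 and had -0.42 at day 5 (adjusted p = 0.128), per the authors' deposited table.

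All 3 LC3 and GABARAP genes of the table fell at day 5, while Gabarap and Map1lc3b are outside the table. Among all genes tested 11.2% fell at day 5. Map1lc3a, an LC3 gene, had -0.20, 0.61, 0.34, -0.77 and -0.15 in the authors' deposited table (standard errors 0.19 to 0.24), risen at day 2 (adjusted p = 0.0794) and fallen at day 5 (adjusted p = 0.00653). Gabarapl1, of the GABARAP branch, had -0.32, 0.05, -0.08, -0.78 and -0.46, per the authors' deposited table (standard errors 0.17 to 0.21), and fell at day 5 (adjusted p = 0.00227). Gabarapl2 fell at day 5 by 0.71 (standard error 0.22), per the authors' deposited table, where its day 2 and day 7 values of 0.20 and -0.54 did not pass.

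Opposite calls at days 2 and 5 were found for 4 of the 36 genes. Atp6v0b, Ctsf, Map1lc3a and Atg16l2 rose at day 2 and fell at day 5, and no other gene of the 36 was called at both days. Over all genes, 366 were called at both days (1.92% of those tested), all of them among the 5826 genes of the table. Of these, 122 rose at day 2 and fell at day 5 (0.639% of those tested and 33.3% of the 366). Of the others 95 went the other way, 28 rose at both and 121 fell at both. The difference of day 5 minus day 2 passed for 21 of the 36 genes, 18 lower and 3 higher at day 5, where 13.4% of all genes tested were called. That is 58.3% of the 36 genes and 43.8% of the table; genes outside the table count as not called, so the share of the table is the like one. By role, it was lower at day 5 for 12 of 17 pump genes, 5 of 11 autophagy genes and 1 of 6 hydrolases, and higher for the hydrolases Ctsk and Ctsw and for Mcoln3. The other pairs of days gave fewer calls among the 36 genes, except day 5 minus day 3, where 25 passed (20 lower and 5 higher at day 5) and 19.2% of all genes were called (69.4% of the 36 and 62.8% of the table). Day 7 minus day 1 passed for Sqstm1 (1.67) and Atp6v0a1 (-1.26). That pair called 1.03% of all genes, 3.38% of the table and 5.56% of the 36. Day 7 minus day 2 passed for Atp6v1f (-0.79) and Atp6v0b (-0.89), with 5.07% called (16.6% of the table and 5.56% of the 36). Day 7 minus day 3 passed for Ulk3 (3.05), with 4.01% of all genes called (13.1% of the table and 2.78% of the 36). Day 7 minus day 5 passed for Ctsw (-5.41), with 2.59% called (8.48% of the table and 2.78% of the 36). Day 3 minus day 1 (0.021% of all genes called) and day 3 minus day 2 (0.0% called) gave none among the 36.

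At days 2 and 3 the markers of endothelial cells (9 of 15 fell at day 2, 4 at day 3) and of the oligodendrocyte lineage (6 of 15 and 2) fell in lesion cultures. Of 22 neuronal markers 2 rose and 3 fell at day 2, and 3 rose and 1 fell at day 3. Among all genes tested 1.89% rose and 4.08% fell at day 2, and 0.534% rose and 0.943% fell at day 3. Gad1 (1.06 at day 2 and -1.64 at day 5) and the neuronal enolase gene Eno2 (0.87 and -0.75), named after its values were seen, rose at day 2 and fell at day 5 of the authors' deposited table, as Atp6v0b, Ctsf, Map1lc3a and Atg16l2 did. The 3 neuronal markers that fell at day 2 were Tubb3 (-1.18), Nefm (-2.97) and Slc17a6 (-5.01), and none of them was called at day 5. The part of these markers in the results was not tested.

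**Figure D5:**
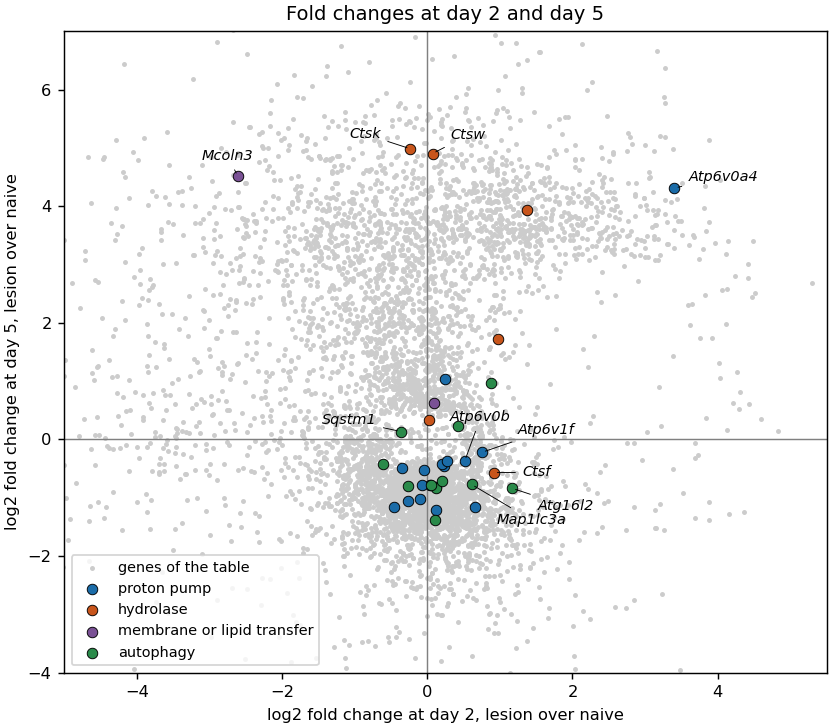
Log2 fold change of lesion over naive at day 2 (x axis) and day 5 (y axis), with the 36 genes coloured by role over all 5826 genes of the table in grey; 56 genes of the table lie outside the axes. Most proton pump and autophagy genes lie below 0 on the day 5 axis, and Ctsk, Ctsw, Mcoln3 and Atp6v0a4 lie above 4 there.

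Over the 5 days as a whole, the fold change differed between days for 26 of the 36 genes by an F test of heterogeneity, with 20.1% of all genes tested called, counting genes outside the table as not called. The share was 72.2% among the 36 and 65.8% among the 5826 genes of the table, and the first is near the second. It was called for 15 of 17 pump genes, all but Atp6v0d1 (adjusted p = 0.278) and Atp6v0a4 (0.259), for 7 of 11 autophagy genes and for 3 of 6 hydrolases.

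Other genes of the pathway, 152 in 5 lists, were counted beside them: 50 were in the table, and 18 rose and 19 fell at day 5. These are 11.8% and 12.5% of the 152, near the 12.8% risen and 11.2% fallen of all genes tested. The shares of single lists lie on both sides of these. No list was tested, so the genes named from them are examples and no result about the lists. Of 39 other hydrolases and their cofactors 4 rose (10.3%) and 1 fell (2.56%) at day 5 in the authors' deposited table, the risen ones being Aga (1.90), Acp5 (4.49), Scpep1 (1.02) and Sgsh (2.24), enzymes that act on glycopeptides, phosphate esters, peptides and heparan sulfate. Of 33 other membrane and transport genes, by the authors' deposited table, 3 rose at day 5 (9.09%), among them Cd63 (0.91) and Laptm4a (0.44), and 2 fell (6.06%), among them Laptm4b (-1.04). Cystatin and serpin genes, 10 in the list, gave 4 risen (40%), Serpinb6a (2.21), Serpinb1a (2.81), Cst6 (2.00) and Cst3 (0.56), and none fallen at day 5 in the authors' deposited table.

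Genes of lysosome biogenesis and mTORC1 signalling, and other autophagy genes, were counted in the other lists. Of 32 in the first list 5 rose (15.6%) and 9 fell (28.1%) at day 5 in the authors' deposited table, among them Tsc1 (-1.73), which restrains mTORC1, Rragb (-1.29), a GTPase that brings mTORC1 to the lysosome, and Gnptab (-1.73), which makes the mannose phosphate tag of hydrolases, while Bhlhe40 (1.95), a transcriptional repressor, rose. Of 38 other autophagy genes, by the authors' deposited table, 2 rose (5.26%) and 7 fell (18.4%) at day 5, among them Trp53inp1 (-1.45) and Epg5 (-1.91), which ties autophagosomes to lysosomes; the risen genes were Vamp8 (2.06), a fusion SNARE, and Dram1 (3.99). At day 2, 2 genes of the 152, Lamtor4 (0.69) and Lamtor5 (0.58) of the lysosomal mTORC1 anchor, rose and 11 fell in the authors' deposited table. The Lamtor genes were named after their values were seen, as was Cln8, which fell by 1.36 at day 1 of the authors' deposited table, when it was called with Cst3 and Cstb. At day 3 none of the 152 was called, and at day 7, 2 rose. Among all genes tested 0.529% fell at day 1, 1.89% rose and 4.08% fell at day 2, and 3.11% rose at day 7.

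Several of the 36 genes share exonic bases with another gene on the opposite strand. The labels do not state whether reads were counted by strand, and without it reads of overlapping genes cannot be told apart. The overlap covers 28.3% of the exonic bases of Gabarapl1 (with 1700101I11Rik), 19.3% of Atg4d (with Kri1), 17.3% of Sqstm1 (with Mrnip) and 11.8% of Atp6v0b (with Gm12841) by GENCODE vM21. The 4 genes of the 36 nearest to the table's threshold were Ulk1 (smallest adjusted p over the days 0.0933), Glb1 (0.0916), Atp6v1e1 (0.0899) and Atg12 (0.0738); genes just outside it are not in the table.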

How the data were processed

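RNA of 29 libraries in 10 groups (15 lesion, 14 naive; groups and days from the sample titles) was prepared with an ultra-low-input kit and sequenced on a HiSeq instrument, per the labels' protocols. STAR and mm10 are named in the submitters' processing notes. How reads were counted, filtered and scaled is not stated. The file used is the authors' own comparison table; its name gives voom, limma and a false discovery rate of 0.1. Per the file headers, the authors deposited for each day a log2 fold change, a p-value and its adjusted form, and a rank, a score in the deposited table that is not explained there and is read here as the order of mean expression. No fit was repeated, as the design for counts would have needed counts.

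Members and lists were chosen with earlier results of these data known. The members are rows whose symbol matches a fixed pattern; roles follow from the symbol. Genes tested per day, 19085, were recovered from the adjusted p-values, which are those of Benjamini and Hochberg. Standard errors were implied from fold change and p with 40 degrees of freedom, chosen so that, within genes of rank up to 4771, implied errors varied least with p; 19 are left by 10 group means alone. Differences between days were tested with Cochran's heterogeneity statistic as an F test, and each of 10 pairs of days with the difference over its implied error. Both were adjusted over the 19085 genes, counting genes outside the table as not significant. Each pair of days was adjusted on its own, with no adjustment over the 10 pairs. The code was tested on simulated data. Genes named with full values are those called at 2 or more days, the 4 with the smallest adjusted p in each role, and up to 4 per list at the day with most calls; Atp6v1f, Atp6v1g2, Atp6v0e, Ulk1 and Wipi1 have full values outside this rule, chosen after their values were seen. Computation used Python 3.11.15, NumPy 2.4.6, pandas 2.3.3 and SciPy 1.17.1. The alternatives tried were stricter thresholds on the adjusted p, a minimum fold change, limits on the rank, the degrees of freedom and the promoter window.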

Additional observations from a re-analysis of the deposited data

Results flagged for a closer look

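The fold change of lesion over naive differed between days (F test of heterogeneity, adjusted over 19085 genes) for 26 of the 36 genes. That is 72.2% of the 36, near the 65.8% of the 5826 genes of the table, so the number is no result about these genes. Among pump genes the adjusted p was 0.00072 for Atp6v0a1, 0.00107 for Atp6v1f, 0.0048 for Atp6v0b, 0.00987 for Atp6v0c, 0.0126 for Atp6v1a, 0.0169 for Atp6v1b2, 0.0197 for Atp6v0e2, 0.0346 for Atp6v1g2, 0.0368 for Atp6ap2 and 0.0402 for Atp6v0e. It was 0.0594 for Atp6ap1, 0.0649 for Atp6v1d, 0.0667 for Atp6v1h, 0.0752 for Atp6v1g1 and 0.0836 for Atp6v1e1. Among autophagy genes it was 0.00383 for Map1lc3a, 0.00903 for Atg16l2, 0.00991 for Sqstm1, 0.0232 for Atg16l1, 0.0306 for Ulk1, 0.0834 for Gabarapl2 and 0.0934 for Gabarapl1. Among hydrolases and membrane genes it was 0.00528 for Ctsk, 0.0093 for Ctsf, 0.0202 for Ctsw and 0.0217 for Mcoln3. Day 5 is the lowest of the 5 days for 13 of the 17 pump genes and, of the genes above, the highest for Atp6v0e, Ctsk, Ctsw, Mcoln3 and Sqstm1.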

How the results depend on the processing

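At an adjusted p under 0.05, day 2 gave 3 risen and 0 fallen members and day 7 gave 1 risen and 0 fallen; at day 2 the pump kept 1 risen gene and autophagy 1 risen and 0 fallen, and at day 5 autophagy had 4 fallen and 0 risen. At 0.01, day 2 gave 0 risen (pump 0, hydrolases 0, autophagy 0) and 0 fallen (autophagy 0), day 5 gave 2 risen and 10 fallen, and day 7 gave 0 in each direction; by role at day 5 the pump had 7 fallen and 0 risen, hydrolases 2 risen and 0 fallen, and autophagy 3 fallen and 0 risen. With an absolute log2 fold change of 1 or more, day 2 gave 1 risen (pump 0, hydrolases 0, autophagy 1) and 0 fallen (autophagy 0), day 5 gave 6 fallen (pump 5, hydrolases 0, autophagy 1) and 7 risen (pump 2, hydrolases 4, autophagy 0), against 22 fallen and 9 risen without it, so the majority turns, and day 7 had 0 fallen. Over all genes tested the same fold limit left 2196 risen of 2438 and 1309 fallen of 2137 at day 5. Over all genes, an adjusted p under 0.05 left 159 risen and 352 fallen at day 2. It left 1509 and 1363 at day 5, and 266 and 59 at day 7. Under 0.01 these counts were 14 and 30 at day 2, 644 and 454 at day 5, and 73 and 3 at day 7. With a rank up to 9542, 5 members rose at day 5 (pump 1, hydrolases 2). Of 89 recomputed values these 40 moved by over 1.5 times and 49 did not; the 14 fallen pump genes at day 5 were 12 at 0.05 and 12 with a rank up to 700, a limit chosen after seeing the data. The number of members that differ between days was 24 with 19 degrees of freedom and 19 at 0.05, against 26. The promoter count was 6 with 200 bases before the start as well. Leaving out Gba2, Lamp3, Lamp5 and Ulk4 changed nothing, as none is in the table. No paired analysis was possible because the table holds comparisons without values per library; for the same reason no replicate was left out and no other normalization was tried. Depth per library is unknown, and fold changes of the 4 members with ranks above 9542 had standard errors of 0.82 to 1.83.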
